A study of Mus musculus with 24 samples.

Results

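Drd1, Drd2, Adora2a, Ppp1r1b, Rgs9, Tac1, Pde10a, Gpr6 and Syndig1l are genes of the projection neurons of the striatum, a deep brain region that lies below the cingulate cortex. These 9 genes, chosen by name as striatal markers with earlier results of these data known, were followed in 24 libraries of anterior cingulate cortex. The table held 15232 genes, and all 9 passed the filter on low values that left 12572 genes for testing. They varied together from library to library: the same 6 libraries held the 6 highest values of every one of the 9 genes, and Drd2 spanned 0.327 to 29.9 FPKM (a read level corrected for gene length and library size). The 6 libraries came from all 3 arms of the study, and none of the 9 genes passed the test between arms or between the sexes. Of all genes 1.42% to 28.6% passed in these comparisons. The 9 were measured far less precisely than most genes, so a difference between arms is not excluded.

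The series sequenced poly(A) RNA of bulk anterior cingulate cortex, 1 library per mouse, in a study of what thrombospondins do for effort in goal-directed behaviour. Its 3 arms held 8 mice each, 4 female and 4 male: untrained mice labelled wild type (WT), untrained mice labelled Thbs1/2 knockout (KO), and KO-labelled mice that were food deprived and trained in a Skinner box. Trained WT mice were not analysed here, and age was not given in the sources used here. Untrained mice were fed freely and had no treatment, so training and food deprivation cannot be told apart. The knockout is given as a double knockout of Thbs1 and Thbs2, with no driver or cell type named.

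The targeted genes went against the labels. Thbs1 was at 0.254 to 0.716 FPKM in the WT-labelled arm, 2.77 to 5.04 FPKM in the untrained KO-labelled arm and 3.62 to 5.91 FPKM in the trained arm. Thbs2 was at 1.52 to 2.31, 2.82 to 3.95 and 2.95 to 3.63 FPKM in the same order. The arms are therefore named by their labels throughout, and every direction between them rests on those labels. Depth, read from the steps between FPKM values, was 12875026 to 19876576 reads in the WT-labelled arm, 12314984 to 27156302 in the untrained KO-labelled arm and 16719068 to 20311584 in the trained arm. The labels say nothing on litters or extraction days, so p-values measure the spread between these animals. One library, untrained KO-labelled male 3, stood apart from the other 23 in its markers of cortical excitatory neurons, septum and striatum. It was also the deepest library, at 27156302 reads. Results that rest on it are given with and without it. Libraries are named below by labelled genotype, sex and replicate, with the word trained where it applies, so that KO male 3 is an untrained library.

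Striatal projection neurons fall into a pair of classes. Those of the direct pathway carry the dopamine receptor Drd1, which raises cAMP, and the neuropeptide precursor Tac1, the source of substance P. Those of the indirect pathway carry the dopamine receptor Drd2, which lowers cAMP, the adenosine receptor Adora2a, which raises it, and the orphan receptor Gpr6. Both classes share Ppp1r1b (DARPP-32, a phosphatase inhibitor switched by cAMP signalling), Rgs9 (a GTPase-activating protein that shortens G-protein signals), Pde10a (a phosphodiesterase that breaks down cyclic nucleotides) and Syndig1l, a membrane protein also known as capucin. Several of these genes are not strictly striatal: deep-layer cortical neurons use Drd1 and Ppp1r1b, and some cortical neurons use Tac1.

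Drd1 lies on chromosome 13 at 54051183 to 54055658, Tac1 on chromosome 6 at 7555061 to 7562978 and Drd2 on chromosome 9 at 49340360 to 49408177 (RefSeq, GRCm38.p6). Adora2a lies on chromosome 10 at 75316877 to 75334792 and Gpr6 on the same chromosome at 41069977 to 41072290. Ppp1r1b lies on chromosome 11 at 98348406 to 98357796, as does Rgs9 at 109225348 to 109298181, Pde10a on chromosome 17 at 8525187 to 8986648 and Syndig1l on chromosome 12 at 84677277 to 84698947. None of the 9 neighbours another.

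Because the 9 genes moved together, their start regions were read from RefSeq (GRCm38.p6, the assembly of the mm10 build), which held a window for 6 of the 9 and none for Adora2a, Ppp1r1b and Syndig1l. Each window is the 250 bases before the transcript start of that table, which for Drd2 and Pde10a lies inside the gene span given above. The windows of a pair of direct-pathway genes, Drd1 (chr13:54055659-54055908, minus strand) and Tac1 (chr6:7554811-7555060, plus strand), and of a pair of indirect-pathway genes, Drd2 (chr9:49340153-49340402, plus strand) and Gpr6 (chr10:41072291-41072540, minus strand), are shown 5′ to 3′, with matches to the motifs named below in capitals.
Drd1: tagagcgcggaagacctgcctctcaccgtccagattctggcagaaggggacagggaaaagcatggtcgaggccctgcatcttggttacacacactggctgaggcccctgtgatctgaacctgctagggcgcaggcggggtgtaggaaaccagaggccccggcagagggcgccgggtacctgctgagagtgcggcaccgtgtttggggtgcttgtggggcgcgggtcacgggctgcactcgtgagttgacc
Tac1: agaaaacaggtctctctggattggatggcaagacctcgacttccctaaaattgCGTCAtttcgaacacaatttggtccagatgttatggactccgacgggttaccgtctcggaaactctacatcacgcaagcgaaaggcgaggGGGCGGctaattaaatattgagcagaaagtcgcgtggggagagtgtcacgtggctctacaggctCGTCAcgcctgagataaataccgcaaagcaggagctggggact
Drd2: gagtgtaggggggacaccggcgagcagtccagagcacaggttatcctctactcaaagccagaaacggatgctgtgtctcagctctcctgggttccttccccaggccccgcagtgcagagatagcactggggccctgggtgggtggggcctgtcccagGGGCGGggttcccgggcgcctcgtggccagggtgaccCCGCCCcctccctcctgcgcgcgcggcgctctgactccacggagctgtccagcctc
Gpr6: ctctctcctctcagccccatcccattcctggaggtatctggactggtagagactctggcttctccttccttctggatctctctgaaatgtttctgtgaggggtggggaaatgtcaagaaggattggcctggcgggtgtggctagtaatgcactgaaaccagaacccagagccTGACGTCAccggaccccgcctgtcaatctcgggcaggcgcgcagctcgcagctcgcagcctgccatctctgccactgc

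Both strands were searched for 4 motifs. GGGCGG, the GC box, was in 4 of the 6 windows (Drd2, Rgs9, Tac1 and Pde10a), against 32.7% of 32851 RefSeq windows of the same length. TGACG, the half-site of the cAMP response element, was in 2 of the 6 (Tac1 and Gpr6), against 17.8%, and in Gpr6 the plus- and minus-strand matches overlap. TATAAA was in 1 of the 6 (Rgs9), against 12.4%. AGGTCA, the half-site of retinoid receptors, was in 0 of the 6, against 14.0%. Drd1 held none of the 4 in this window, and no single motif was present in all 6.

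Drd1, of the direct pathway, ranged from 3.33 through a median of 5.24 to 14.3 FPKM in the WT-labelled arm, from 2.69 through 3.97 to 21.9 FPKM in the untrained KO-labelled arm and from 2.36 through 4.39 to 9.005 FPKM in the trained arm (n = 8 each). Its 6 highest values were 21.9 FPKM in KO male 3, 14.3 in WT female 4, 11.6 in WT female 3, 10.2 in KO male 1, 9.39 in WT male 3 and 9.005 in trained KO male 1. The next library, trained KO female 3, was at 5.54 FPKM, so a gap separated these 6, drawn from 3 arms, from the other 18.

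Tac1 had its own shape. It ran from 10.6 through 13.1 to 27.8 FPKM in the WT-labelled arm, from 7.53 through 10.2 to 106.6 FPKM in the untrained KO-labelled arm and from 6.78 through 13.3 to 23.2 FPKM in the trained arm (n = 8 each). The value of 106.6 FPKM belonged to KO male 3, and the 5 libraries after it were at 20.8 to 27.8 FPKM. Among the other 18 libraries Tac1 reached 15.5 FPKM, in trained KO male 2, so the 6 were again the highest, but with KO male 3 far above the other 5.

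The indirect-pathway genes had the lowest floors and the widest spans. Drd2 was at 1.09, 0.498, 7.74 and 14.9 FPKM in WT females 1 to 4 and at 0.841, 1.42, 9.23 and 1.95 FPKM in WT males 1 to 4. In the untrained KO-labelled arm it was at 0.784, 0.821, 0.398 and 0.523 FPKM in females 1 to 4 and at 12.9, 0.327, 29.9 and 0.895 FPKM in males 1 to 4. In the trained arm it was at 2.90, 0.842, 3.85 and 0.663 FPKM in females 1 to 4 and at 9.10, 1.72, 0.803 and 1.05 FPKM in males 1 to 4. Each arm thus held libraries near or under 1 FPKM beside libraries of several FPKM, and the lowest of the 6 high libraries, WT female 3, was above the highest of the other 18, trained KO female 3.

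Adora2a and Gpr6 had the same 6 libraries on top. Adora2a was at 19.2 FPKM in KO male 3, 11.8 in KO male 1, 11.2 in WT female 4, 8.56 in WT female 3, 7.95 in WT male 3 and 7.38 in trained KO male 1. Its next value was 3.64 FPKM, in trained KO female 3, and its lowest 0.585 FPKM, in trained KO female 2. Gpr6 was at 9.58 FPKM in KO male 3, 5.82 in WT female 4, 5.76 in KO male 1, 4.13 in WT male 3, 3.25 in WT female 3 and 2.89 in trained KO male 1. The seventh value of Gpr6 was 1.84 FPKM, in WT male 4, and the lowest 0.199 FPKM, in trained KO female 2. The low end rests on few reads, as Drd2 fell to 8 reads and Gpr6 to 4 reads in single libraries, so the order among the low libraries is not firm for these genes.

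The genes shared by both classes had these libraries on top as well. Ppp1r1b, the most abundant member per length, ran from 36.8 through 61.0 to 137.1 FPKM in the WT-labelled arm, from 41.5 through 47.5 to 197.7 FPKM in the untrained KO-labelled arm and from 37.7 through 59.9 to 110.5 FPKM in the trained arm (n = 8 each). Pde10a ran from 9.34 through 12.0 to 36.9 FPKM, from 9.34 through 10.4 to 39.9 FPKM and from 10.1 through 12.7 to 21.9 FPKM in the same arms. Rgs9 ran from 2.34 through 3.24 to 11.6 FPKM, from 2.11 through 2.69 to 17.8 FPKM and from 2.13 through 2.86 to 5.88 FPKM. Syndig1l ran from 0.831 through 2.15 to 9.70 FPKM, from 0.834 through 1.05 to 12.0 FPKM and from 1.00 through 1.76 to 7.11 FPKM. For these 4 genes as for the other 5, the ranges of all 3 pairs of arms overlapped.

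**Figure D1:**
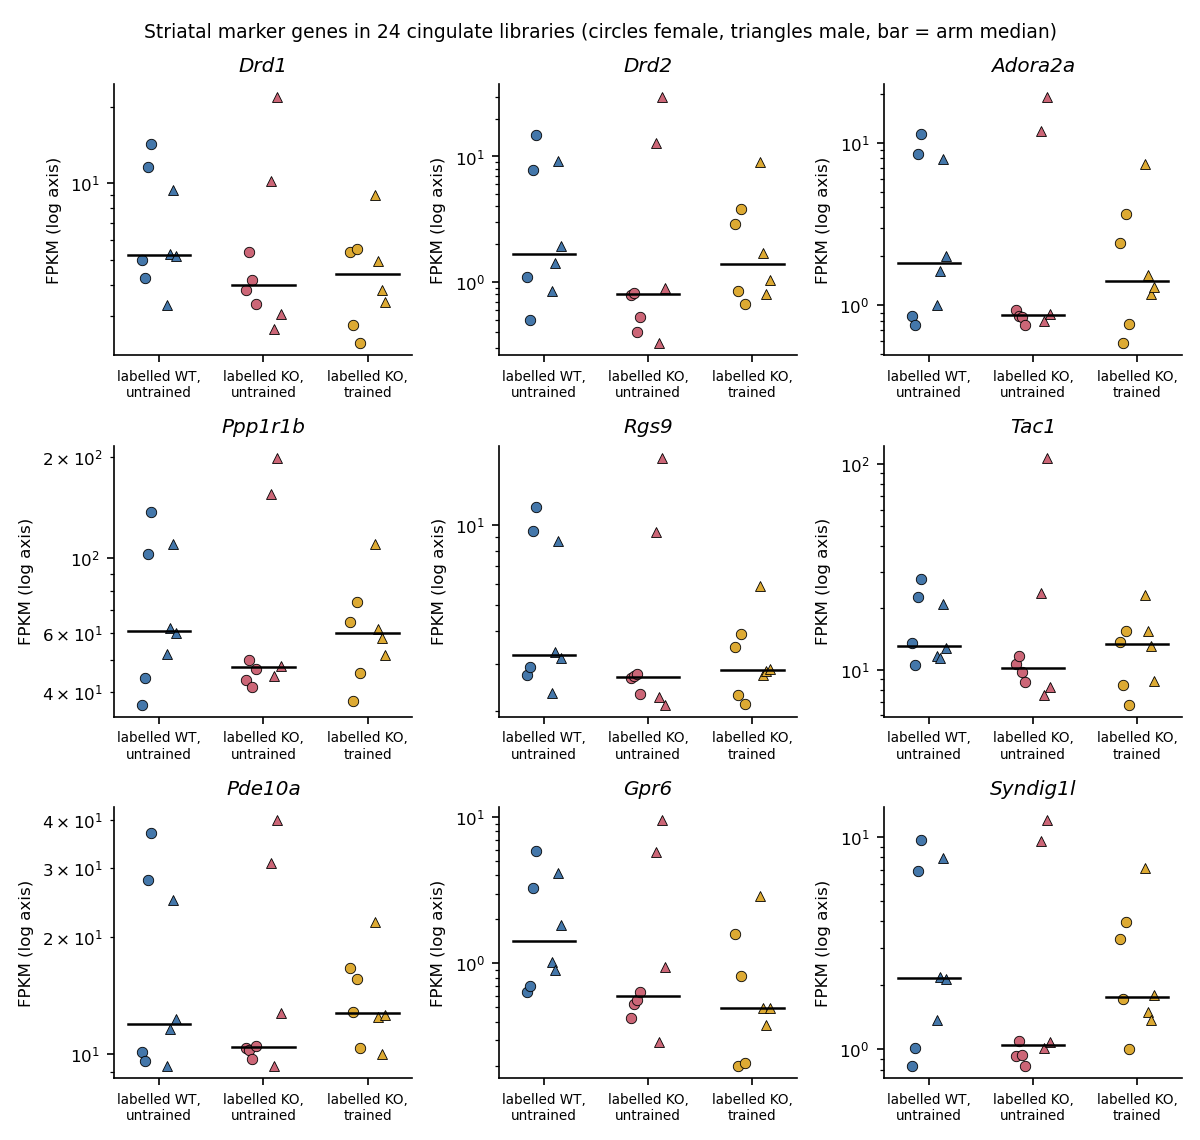
FPKM of each of the 9 genes on a log axis in the 3 arms, 1 point per library (circles female, triangles male), with the arm median as a bar. In every gene the 6 highest points are the same libraries, 3 in the WT-labelled arm, 2 in the untrained KO-labelled arm and 1 in the trained arm, and the arms overlap.

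The span from the lowest to the highest library differed between the genes. It was 91.4-fold for Drd2, 48.1-fold for Gpr6, 32.8-fold for Adora2a, 15.7-fold for Tac1, 14.5-fold for Syndig1l, 9.29-fold for Drd1, 8.44-fold for Rgs9, 5.37-fold for Ppp1r1b and 4.28-fold for Pde10a. Without KO male 3 the spans were 45.5-fold for Drd2, 29.2-fold for Gpr6, 20.1-fold for Adora2a, 11.7-fold for Syndig1l, 6.07-fold for Drd1, 5.51-fold for Rgs9, 4.204-fold for Ppp1r1b, 4.09-fold for Tac1 and 3.95-fold for Pde10a. The 3 indirect-pathway genes spanned most with and without that library, whereas Tac1 went from above Syndig1l to below Ppp1r1b.

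Ordered by the mean rank of the 9 genes, KO male 3 came first with rank 24 of 24 for all 9, followed by WT female 4, KO male 1, WT female 3, WT male 3 and trained KO male 1. The summed FPKM of the 9 genes was 454.6 in KO male 3, 269.4 in WT female 4, 269.1 in KO male 1, 203.1 in WT male 3, 201.1 in WT female 3 and 196.9 in trained KO male 1. Trained KO females 3 and 1 followed at 127.1 and 113.9, and the other 16 libraries lay between 67.4 and 102.7. Of the 6 high libraries 2 were female and 4 male, and 2 came from animals with numbers over 1000 in the labels. Those numbers go with the arms: numbers over 1000 belonged to all 8 trained animals, 2 untrained KO-labelled ones and 1 WT-labelled one.

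**Figure D2:**
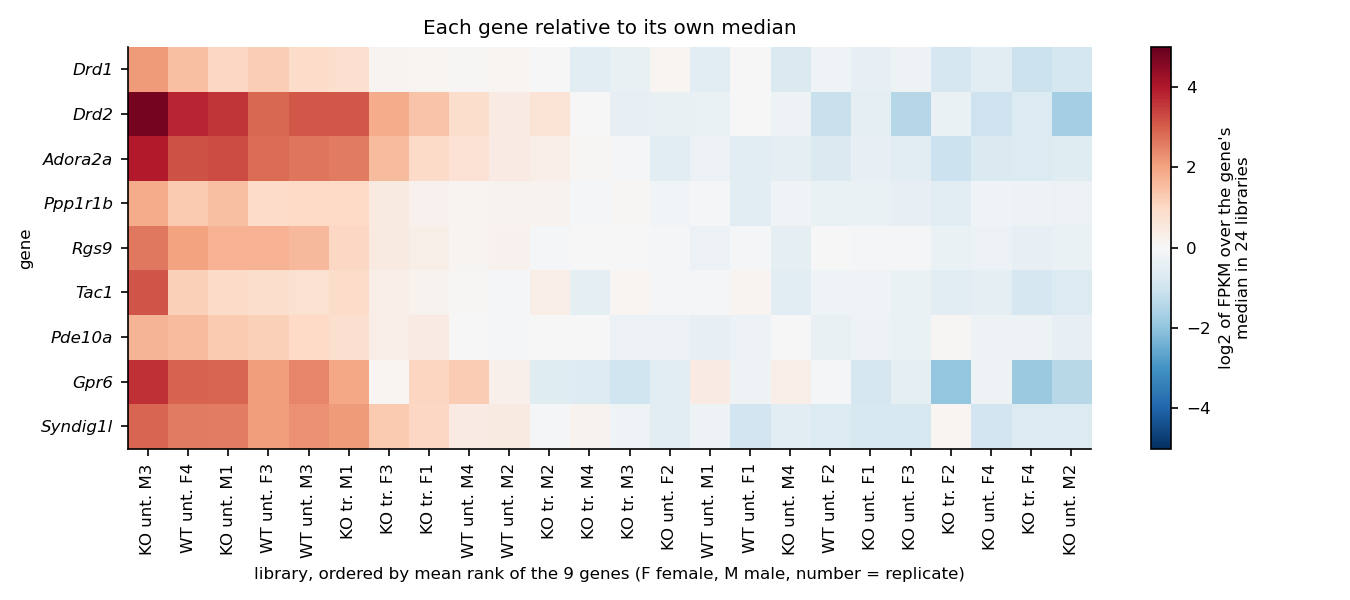
Log2 of each gene's FPKM over its own median in the 24 libraries (colour), genes in rows and libraries in columns ordered by the mean rank of the 9 genes. The first 6 columns are high in every row, KO male 3 most, and they mix the 3 arms.

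Across the 24 libraries the 36 pairs of members had Spearman rho of 0.663 to 0.933, with a median of 0.810, and of 0.617 to 0.924, with a median of 0.785, without KO male 3. These correlations are descriptions, since the libraries share arms and sexes and the genes were chosen as markers of one tissue.

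Ratios between members differed between libraries as well. Drd2 over Drd1 was 0.668 to 1.36 in the 6 high libraries and 0.0959 to 0.695 in the other 18, so the ranges overlapped through trained KO female 3. Tac1 over Drd1 was 4.87 in KO male 3 and 1.94 to 3.50 in every other library. As rise over the median of the 24 libraries, Tac1 gained 5.59 FPKM for each FPKM of Drd1 in KO male 3, and 1.59 to 2.74 in the other 5 high libraries. KO male 3 thus differed from the other 5 in its ratio of Tac1 to Drd1 as well as in its level, and the cause was not tested.

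Lists of genes for the tissues around the cingulate cortex were read in the same libraries. In KO male 3 the 10 septal genes summed to 158.9 FPKM, against 8.51 to 14.6 FPKM in the other 23 libraries, and all 10 were highest there. Zic1, a transcription factor of the septum, was at 52.0 FPKM in KO male 3 and at most 2.70 FPKM elsewhere, and Nts, the neurotensin precursor, was at 25.2 FPKM against at most 1.33 FPKM. The 6 genes of cholinergic neurons, which sit in striatum and septum, summed to 26.8 FPKM there and to at most 2.59 FPKM elsewhere, with Chat, the acetylcholine-making enzyme, at 8.17 FPKM. The thalamic list summed to 86.4 FPKM against at most 28.7 FPKM, of which 75.2 FPKM was Prkcd, a kinase also found in other forebrain regions, while Slc17a6, the thalamic glutamate transporter, was at 4.78 FPKM, below the median of 5.65 FPKM.

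Genes of cortical excitatory neurons were low in that library. The 12 genes of cortical excitatory neurons summed to 286.7 FPKM in KO male 3 and to 750.9 to 989.4 FPKM in the other 23 libraries, and 11 of the 12 were lowest there. Slc17a7, the main glutamate transporter of cortical neurons, was at 190.8 FPKM against 442.4 to 616.2 FPKM elsewhere. A list of 6 deep-layer cortical genes, chosen because such neurons also use Drd1 or Ppp1r1b, was split. Its sum was 146.6 FPKM in KO male 3 and 84.0 to 140.5 FPKM elsewhere. Of the 6 genes, 3 (Foxp2, Syt6 and Crym) were highest there and 1 was the lowest of the 24 libraries. Only those 3 had a value in KO male 3 among the 6 highest of the gene. That list shares Foxp2 with the striatal genes and Rprm with the cortical excitatory ones. The 9 oligodendrocyte genes summed to 727.8 FPKM, under the 1048.8 to 1829.4 FPKM of the others. Gad1 and Gad2, which make GABA in striatal and septal neurons as well as in cortical interneurons, were at 285.3 and 151.0 FPKM, the highest of the 24 libraries. Both belong to an interneuron list of 6 genes, of which 3 were highest of the 24 in KO male 3 and 2 were lowest. The lowest were Pvalb, a calcium-binding protein, and Vip, a neuropeptide, at 10.7 and 11.8 FPKM.

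The other 5 high libraries did not share the septal values of KO male 3. Their septal sums of 9.11 to 11.7 FPKM lay inside the 8.51 to 14.6 FPKM of the other 18 libraries. Their cortical excitatory sums were 854.5 to 879.8 FPKM in WT male 3, trained KO male 1 and KO male 1, inside the 762.8 to 989.4 FPKM of the other 18, and 755.6 and 750.9 FPKM in WT females 3 and 4, just under them. Their cholinergic sums of 1.39 to 2.59 FPKM were above the 0.313 to 0.818 FPKM of the other 18, though each gene of that list stayed under 1 FPKM. Ventricle-wall neuroblast genes summed to 20.1 to 23.5 FPKM in these 5 against 14.2 to 19.8 FPKM in the other 18. Oligodendrocyte genes summed to 1223.4 to 1686.8 FPKM in these 5 and to 1048.8 to 1829.4 FPKM in the other 18. Of the 9 oligodendrocyte genes, WT male 3 and trained KO male 1 each had 8 among the 6 highest values of the gene. WT female 4 had 5, WT female 3 had 3 and KO male 1 had 0, while trained KO female 3, not a high library, had 8. Of the 6 deep-layer genes, WT female 3 and WT male 3 each had 5 among the 6 highest values of the gene, WT female 4 had 4, KO male 1 had 3 and trained KO male 1 had 2, while trained KO male 3, which is not among the high libraries, had 4. The deep-layer sums were 109.3 to 140.5 FPKM in these 5 and 84.0 to 139.6 FPKM in the other 18. The part of deep-layer neurons and of these neighbouring tissues in the striatal signal was not tested, and since no library of pure striatum was analysed here, no share of tissue was calculated. In bulk tissue, more cells of a type and more RNA per cell cannot be told apart.

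**Figure D3:**
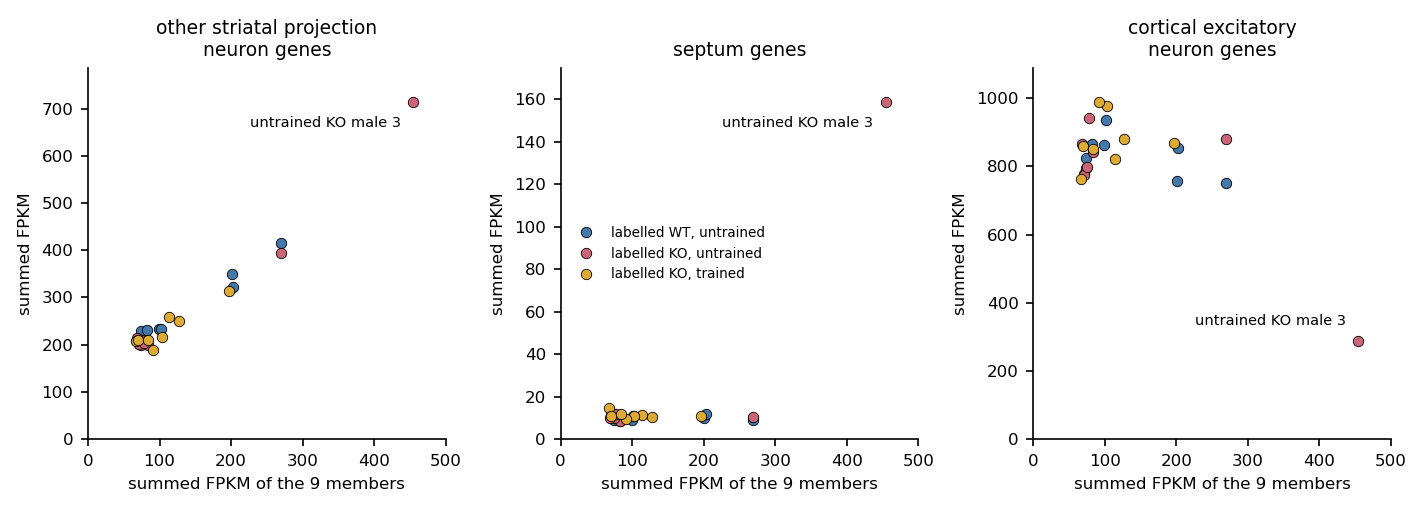
Summed FPKM of 3 marker lists (vertical axes: 29 other striatal projection neuron genes, 10 septal genes, 12 cortical excitatory neuron genes) against the summed FPKM of the 9 striatal members (horizontal axes), 1 point per library, coloured by arm. The other striatal genes rise with the members, while in KO male 3 septal genes are at their highest and cortical excitatory genes at their lowest, at 158.9 and 286.7 FPKM.

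Many genes of the wider striatal programme followed the members, but not all. Of 29 other striatal projection neuron genes in the table, WT female 4 and KO male 1 each had 26 among the 6 highest values of the gene, WT female 3 had 25, KO male 3 had 24, WT male 3 had 21 and trained KO male 1 had 15, and no other library had more than 4. Penk, the enkephalin precursor of the indirect pathway, was at 308.8 FPKM in KO male 3, 129.1 in KO male 1, 119.0 in WT female 4, 93.6 in trained KO male 1, 85.6 in WT female 3 and 79.8 in WT male 3, and at most 63.3 FPKM in the other 18. Of 18 partners in dopamine and cAMP signalling, KO male 3 had 15 among the 6 highest values of the gene, WT female 4, KO male 1 and trained KO male 1 had 13 each, WT female 3 had 11 and WT male 3 had 9. Drd3, the receptor of the ventral striatum, was at 6.30 FPKM in KO male 3 and at most 0.293 FPKM elsewhere. In KO male 3, 21 of the 29 genes and 12 of the 18 partners were the highest of the 24 libraries, and 2 and 1 were the lowest. Over the 24 libraries, Spearman rho with the members' mean rank was -0.22 for Rgs7bp, -0.10 for Prkca and -0.01 for Ano3, beside 0.910 for Adcy5.

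Among 12562 tested genes that are not members, with a repeated symbol taken once, those whose levels followed the members' mean rank most closely over 24 libraries included Adcy5 (rho 0.910), Rxrg (0.900), Fndc9 (0.896), Ccdc153 (0.893), Cd4 (0.881), Dach1 (0.864), Gpr52 (0.863), Foxp2 (0.862) and Tmem158 (0.851). The median rho of all these genes was -0.01, and 25 reached 0.8. Adcy5, the main adenylyl cyclase of striatum, ran from 21.0 through 25.7 to 77.0 FPKM. Ccdc153 is a gene of ciliated ependymal cells, the lining of the ventricle, whereas Adcy5, Rxrg, Gpr52, Foxp2 and Tmem158 were already in the lists of striatal genes. The most opposed were Hsd11b1 (rho -0.83), the enzyme that regenerates active glucocorticoid, Mcf2 (-0.77), Fam3c (-0.76), Bmper (-0.76) and Btbd3 (-0.75). These rhos describe 24 libraries and carry no test.

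Between animals of one arm, the members were among the most variable genes of the table. The within-arm standard deviation on the log2(FPKM + 1) scale was 1.36 for Drd2, 1.18 for Adora2a, 0.99 for Syndig1l, 0.88 for Gpr6, 0.83 for Tac1, 0.75 for Rgs9, 0.71 for Drd1, 0.70 for Ppp1r1b and 0.66 for Pde10a, against a median of 0.14 over 12572 genes. All 9 were among the 100 largest, Drd2 at rank 4 and Pde10a at rank 46. Without KO male 3 all 9 were still among the 100 largest, Drd2 at rank 6 and Tac1, the lowest placed, at rank 61. The members were chosen with earlier results of these data known, so these ranks are descriptions. Gpr6 was among the tested genes only through its high libraries.

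**Figure D4:**
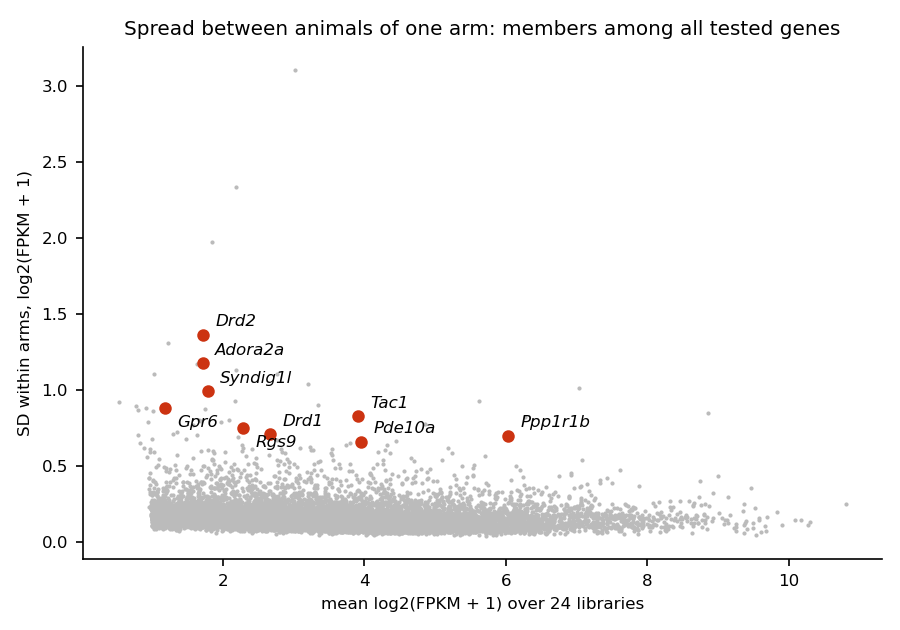
Standard deviation within arms against mean level, both on the log2(FPKM + 1) scale, for 12572 tested genes (grey) with the 9 members in red. The members lie between 0.66 and 1.36, above the bulk of genes around the median of 0.14.

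The arms were then compared with limma on log2(FPKM + 1), with sex as a covariate and Benjamini-Hochberg adjustment over all 12572 genes at a threshold of 0.05. Between the untrained arms 0 of 9 members passed, against 1.42% of all genes, and 0 of 9 had an unadjusted p below the threshold. All 9 members had lower fitted levels in the KO-labelled arm, with log2 changes of -0.37 to -0.09 and a median of -0.25 (all genes, 0.00), standard errors of 0.343 to 0.684 and adjusted p of 0.818 to 0.949. Drd2 had a log2 change of -0.37 with a 95% interval of -1.82 to 1.07, and Drd1 of -0.25 with an interval of -1.01 to 0.51. A change of 2-fold in either direction thus lay inside the interval of Drd2 and a 2-fold fall inside that of Drd1. The median standard error of all genes was 0.0609, so the members were measured far less precisely than most genes.

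Between the trained and untrained arms labelled KO, 0 of 9 members passed, against 5.67% of all genes, and 0 of 9 had an unadjusted p below the threshold. The log2 changes ran from -0.45 for Gpr6 to 0.12 for Syndig1l with a median of -0.14, and 8 of 9 were below 0, with adjusted p of 0.496 to 0.974. These signs rested on single libraries: without KO male 3 8 of 9 members were above 0, with a median of 0.13, and without KO male 1 5 of 9, with a median of 0.05. In the untrained comparison, leaving out KO male 3 kept all 9 below 0 and moved the median to -0.53, with 0 of 9 passing and a lowest adjusted p of 0.267. Leaving out WT female 4 or WT female 3 moved that median to -0.01 and -0.07, with 3 of 9 above 0 each time.

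Between the trained arm labelled KO and the untrained arm labelled WT, 0 of 9 members passed, against 24.5% of all genes, and only Gpr6 had an unadjusted p below the threshold. All 9 were below 0, with log2 changes of -0.72 to -0.18, a median of -0.42 (-0.18 without WT female 4) and standard errors of 0.227 to 0.489. Gpr6 came nearest, at -0.72 ± 0.307 (SE, n = 16, limma adjusted p = 0.0930), with medians of 1.43 FPKM in the WT-labelled and 0.496 FPKM in the trained arm. Gpr6 passed the filter on low values only through its high libraries. Its mean over the 24 libraries was 1.84 FPKM and its median 0.764 FPKM. It passed the test in 1 of the 16 fits that left out a library, at -0.90 and a limma adjusted p of 0.0321. That fit left out trained KO male 1, the library that held the arm's highest Gpr6. The 3 comparisons share arms and are not independent of each other.

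Males and females, compared over 24 libraries with arm as a covariate, had 0 of 9 members past the threshold, against 28.6% of all genes, and 0 of 9 with an unadjusted p below it. In all 4 comparisons limma-voom on the recovered reads also called 0 of 9. All 9 were higher in males in the fit, by 0.16 to 0.53 with a median of 0.41 and adjusted p of 0.211 to 0.680. Without KO male 3 the median was 0.23, Drd1 turned to -0.01 and 0 of 9 passed. The members' standard errors were 0.248 to 0.505, against a median of 0.0520 over all genes.

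**Figure D5:**
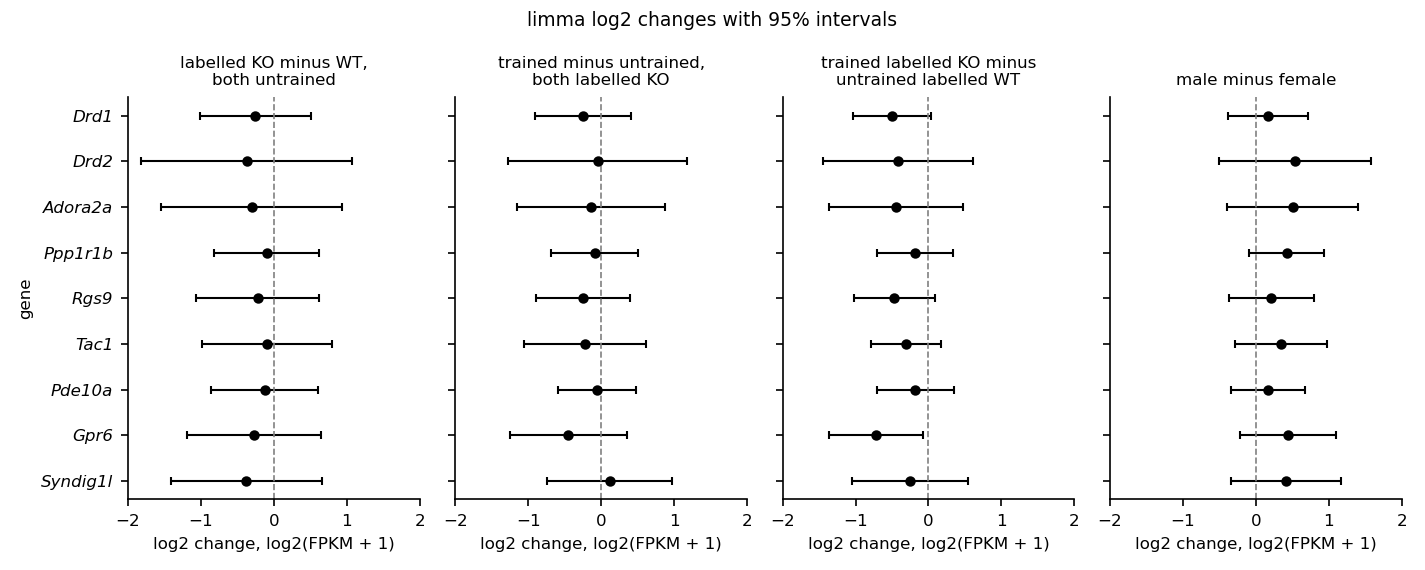
Fitted log2 changes (points) and 95% intervals (bars) of the 9 genes on the log2(FPKM + 1) scale in the 4 comparisons. Only the interval of Gpr6 between the trained arm and the WT-labelled arm, -1.37 to -0.08, lies on one side of 0, and its adjusted p was 0.0930.

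Animal number was read beside these results. Among the 13 animals with numbers under 1000, the untrained KO-labelled and WT-labelled libraries differed by -0.61 to -0.07 with a median of -0.38. There 0 of 9 members passed the threshold, against 127 of all 12572 genes. Among the 6 males with numbers over 1000 in the KO-labelled arms, trained and untrained differed by -0.67 to 0.08 with a median of -0.40. That fit called 0 of all 12572 genes, so its 0 of 9 members says nothing about the members in particular. With animal number as a covariate 8 of 9 members turned above 0 between the trained and WT-labelled arms, with a median of 0.33 and adjusted p of 0.828 to 0.965, and the number of genes called over the whole table fell from 3074 to 22. Only 1 WT-labelled animal had a number over 1000, so number and arm are nearly the same split there.

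In both comparisons with the untrained KO-labelled arm, limma and limma-voom called 0 of 16 tested signalling partners and 0 of 20 tested other striatal genes. Unadjusted p lay below the threshold for 0 and 3 of them between the untrained arms and for 2 and 0 between the trained and untrained arms, against 12.7% and 23.8% of all genes. Between the trained and WT-labelled arms 1 of 16 partners passed, against 24.5% of all genes: Ppp1ca, a catalytic subunit of protein phosphatase 1, rose by 0.15 on the log2 scale. Of the other striatal genes 5 of 20 passed, near that share of all genes, and all 5 fell: Ankrd63 by 0.61, Meis2 by 0.53, Kcnh4 by 0.30, Ano3 by 0.24 and Foxp1 by 0.24 on the log2 scale. The median log2 change was -0.08 over the partners and -0.18 over the other striatal genes, beside 0.00 over all genes. With animal number as a covariate 0 genes of either list passed in that comparison, and 0 and 1 had an unadjusted p below the threshold. Of all 12572 genes only 22 passed in that fit, and 1248 had an unadjusted p below the threshold. Males had higher Ppp1ca (0.13) and lower Rgs7bp (-0.19) and Ano3 (-0.26), 3 calls among the 16 and 20 tested genes of these lists, against 28.6% of all genes. Without KO male 3 there were 5, with Pdyn (0.18, limma adjusted p = 0.0497) and Ptpn5 (0.14, adjusted p = 0.0318) added. That fit called 4148 of all 12572 genes.

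Of the 5 other striatal genes called between the trained and WT-labelled arms, 3 lie on chromosome 2. That chromosome carries Thbs1 at 118111876 to 118127133 (GRCm38.p6). No share of all genes on chromosome 2 was set beside this count, so it is a description. Ankrd63 lies 0.572 Mb from Thbs1, Meis2, a homeobox factor of striatal development, 2.04 Mb and Ano3 7.16 Mb. Meis2 was at 22.1 to 29.1 FPKM in the WT-labelled arm and at 13.9 to 20.6 FPKM in the trained arm, with no overlap. In the untrained KO-labelled arm it was at 15.3 to 42.1 FPKM, the highest value being KO male 3. Without that library Meis2 (-0.52, limma adjusted p = 0.000130) and Ankrd63 (-0.61, adjusted p = 0.0253) were also called between the untrained arms. That fit called 340 of all 12572 genes. Both genes thus moved with the genotype label and with the striatal signal of KO male 3, and the part of each in their levels was not tested. Among the members only Pde10a lies on a targeted chromosome, 5.68 Mb from Thbs2 on chromosome 17.

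The members' mean level was also put into the fits of all genes as a covariate. The number of genes called was then 201 instead of 179 between the untrained arms, 731 instead of 713 between the trained and untrained KO-labelled arms, 2614 instead of 3074 between the trained and WT-labelled arms and 3812 instead of 3595 between the sexes. All 4 counts moved by less than 1.5 times. Leaving out KO male 3 alone moved the first count to 340.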

How the data were processed

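Poly(A) RNA of mouse anterior cingulate cortex was sequenced by the submitters from stranded mRNA libraries, per the labels' protocols. The deposited table holds FPKM values that the authors computed, under column headings that speak of counts. FastQC 0.11.7, Trimmomatic 0.38, STAR 2.5.3a, featureCounts and Subread 1.6.3 are listed in the submitters' processing notes with the build mm10; the annotation and gene filter are not given in the sources used here. Columns were matched to samples by animal number, and 0 columns were left unmatched.

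Here FPKM values were compared as log2(FPKM + 1) with limma 3.58.1 in R 4.3.3 (eBayes with trend), for genes with mean FPKM of at least 1 over 24 libraries, with Benjamini-Hochberg adjustment over 12572 genes and a threshold of 0.05. The log2 scale understates changes of low genes. Arms were compared with sex as a covariate, and sexes with arm as a covariate. Reads were recovered from the steps between FPKM values: 99.97% of values were whole within 0.01 read, for 15231 genes, a step tested on simulated data. They cover counting error only. Python 3.11.15, numpy 2.4.6, pandas 2.3.3, scipy 1.17.1 and matplotlib 3.10.9 were used.

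The members and gene lists were chosen with earlier results of these data known. The genes named are the 9 members, list genes that passed or were among the most abundant of their list, and the 10 genes most like and 5 least like the members by Spearman rho with their mean rank, of which 1 is not reported here. Gad1, Gad2, Pvalb, Vip, Drd3, Slc17a6, Syt6 and Rprm were named after their values were seen. The settings varied were the pseudocount (0.1), the filter (none, or a mean of 5 FPKM), scaling by median ratios or quantiles, eBayes without trend, array weights, no covariate, all libraries in one fit, a replicate block, animal number and each library left out. limma-voom on recovered reads and the members' mean level as a covariate (for the counts over all genes only) were added after seeing the data. A trained female whose title has no number is called replicate 4 here and was left out of the block fits with its partner.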

Additional observations from a re-analysis of the deposited data

Results flagged for a closer look

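In each arm of 8 libraries, the highest and lowest value of each member and of each list sum was set against the rest of its arm, and a value was noted when its gap to the nearest other library as a share of the arm's range exceeded Dixon's 95% critical value for 8 values. Of 72 sets of values 20 were noted, and 12 of the 20 were in KO male 3. A rate of 1 in 20 would give 3.6, but that rate is for normally distributed values, and FPKM values were used here without logs. The members and lists were also chosen with earlier results known, so 20 beside 3.6 is no test against chance. The sets are not independent, since the genes share libraries.

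In KO male 3 the members noted were Tac1 at 106.6 FPKM, Drd2 at 29.9, Drd1 at 21.9 and Rgs9 at 17.8. The list sums noted there as high were other striatal genes at 714.8 FPKM, septum at 158.9, thalamus at 86.4, ventricle-wall neuroblasts at 46.9, cholinergic neurons at 26.8 and dopamine neurons at 12.7 FPKM. Those noted as low were cortical excitatory neurons at 286.7 FPKM and oligodendrocytes at 727.8 FPKM.

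In trained KO male 1, Drd2 at 9.10 FPKM, Adora2a at 7.38 and Rgs9 at 5.88 stood above the other 7 libraries of the trained arm, as did the sums of dopamine and cAMP signalling partners at 733.6 FPKM and of cholinergic genes at 1.39 FPKM. Away from the striatal signal, septal genes summed to 14.6 FPKM in trained KO female 2, interneuron genes to 627.4 FPKM in WT male 1, and ependymal and choroid plexus genes to 94.6 FPKM in trained KO female 1, of which 81.9 FPKM was Ttr, the transthyretin of choroid plexus. The last library ranked eighth of 24 for the striatal members.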

How the results depend on the processing

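The count of 0 of 9 members past the threshold held in all 4 comparisons under the alternatives run on the members, except that a mean of at least 5 FPKM left only 4 members (0 of 4 passed) and that the count ranged from 0 to 1 over the fits leaving out a library between the trained and WT-labelled arms, the 1 being Gpr6 without trained KO male 1. Directions were less stable, and the cause of the turns below was not tested. Between the trained and WT-labelled arms, animal number as a covariate gave log2 changes of 0.33 for Drd1, 0.71 for Drd2, 0.59 for Adora2a, 0.31 for Ppp1r1b, 0.30 for Rgs9, 0.12 for Tac1, 0.45 for Pde10a and 0.53 for Syndig1l. With a block for the replicate number, Ppp1r1b was 0.0074, Pde10a 0.043 and Syndig1l 0.051 there. Between the trained and untrained KO-labelled arms, array weights gave 0.50 for Drd2, 0.27 for Adora2a, 0.16 for Ppp1r1b, 0.11 for Tac1 and 0.19 for Pde10a. Animal number as a covariate gave 0.014 for Drd1, 0.30 for Tac1 and -0.16 for Syndig1l, males with numbers over 1000 gave 0.080 for Tac1 and -0.44 for Syndig1l, and a pseudocount of 0.1 gave 0.23 for Drd2. Between the untrained arms, limma-voom on recovered reads, added after seeing the data, gave 0.086 for Tac1.

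With each library left out in turn, the change between the untrained arms ranged from -0.31 to 0.089 for Ppp1r1b, -0.50 to 0.064 for Tac1 and -0.32 to 0.079 for Pde10a, lowest without KO male 3. Between the trained and untrained KO-labelled arms it ranged from -0.40 to 0.0024 for Drd1, -0.31 to 0.39 for Drd2, -0.34 to 0.20 for Adora2a, -0.22 to 0.11 for Ppp1r1b, -0.39 to 0.010 for Rgs9, -0.40 to 0.16 for Tac1, -0.18 to 0.13 for Pde10a and -0.032 to 0.38 for Syndig1l, each highest without KO male 3. Between the sexes Drd1 ranged from -0.014, without KO male 3, to 0.27.

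The number of genes called over the whole table also moved with the setting. Leaving out a library gave 115 to 340 between the untrained arms, 330 to 945 between the trained and untrained KO-labelled arms, 2363 to 3418 between the trained and WT-labelled arms and 2986 to 4233 between the sexes, the lowest without WT female 3, KO female 1, WT female 3 and WT male 4 and the highest without KO male 3 once and trained KO male 4 otherwise. The replicate block gave 114, 29, 1614 and 3889 genes and 0 of 9 members in each; same-numbered libraries, which are different animals, had mean deviation correlations of 0.02, -0.07 and -0.10 between arms, so the numbers were not taken as pairs. Array weights gave 297, 2020, 3632 and 4778, no covariate 98, 422, 2554 and 2917, and all libraries in one fit 1238 for the second. Animal number as a covariate left 0 genes in the second (1306 with an unadjusted p below the threshold) and 22 in the third, and the 6 males with numbers over 1000 gave 0 (1320 unadjusted). In the list of other striatal genes the 5 calls between the trained and WT-labelled arms became 3 with the block or with all libraries in one fit. Reads limit the lowest members, as Drd2 and Gpr6 had as few as 8 and 4.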
